A study of Homo sapiens with 2 samples.

Results

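The genes described here are 9 genes of major histocompatibility complex (MHC) class I antigen presentation, HLA-B, HLA-C, B2M, TAP1, TAP2, TAPBP, ERAP1, PSMB8 and PSMB9. They were taken by symbol, and all 9 were found among the 24462 distinct gene symbols of the count tables. Messenger RNA was counted at its 3' end with the Lexogen QuantSeq kit in A549, an established cell line from a human lung adenocarcinoma, grown in DMEM with serum. The first of the 2 libraries came from A549 cells transfected with siRNAs against ADGRF4, an adhesion G protein-coupled receptor, and the other from A549 cells transfected with control siRNAs. No allele or other agent is named for either, and siRNA sequences were not given in the sources used here.

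MHC class I molecules show peptides from inside the cell to CD8 T cells, and almost all nucleated cells carry them. The proteasome cuts proteins into peptides, a transporter in the endoplasmic reticulum membrane (TAP1 with TAP2) moves the peptides into the endoplasmic reticulum, ERAP1 trims them there, and the chaperone tapasin (TAPBP) holds the empty class I molecule at the transporter until a peptide fits. The finished complex has a polymorphic heavy chain, such as HLA-B or HLA-C, and the invariant light chain beta-2-microglobulin (B2M). Interferons raise many of these genes together, and tumour cells often carry less of them.

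The ADGRF4 siRNA library held 9825320 counts and the control siRNA library 10396047. With 1 library per treatment there was no replicate check and no test, so every difference is between these 2 libraries, and each range given after a value is an exact 95% interval that covers counting error only. The silenced gene did not check the labels: ADGRF4 had 1 count in the ADGRF4 siRNA library (0.0253 to 5.57) and 3 counts in the control library (0.619 to 8.77). Epithelial and A549 markers were read, with 12 of 14 detected in each library and 144850 counts in all after ADGRF4 siRNA against 165090 after control siRNA. Of the 11 of these compared, 6 were at least 1.5-fold lower and 3 higher after ADGRF4 siRNA, by log2 of (CPM + 1) ratios (median -0.63). Of all 11771 symbols compared, 22.3% were lower and 21.1% higher. AKR1B10 was 4.86-fold lower (4.63 to 5.11), CDH1, the epithelial cadherin, 4.34-fold lower (3.78 to 5.01) and AKR1C1 2.93-fold lower (2.81 to 3.06), and the keratin KRT7 was 2.66-fold higher (2.59 to 2.74). Centred on the median of symbols with like GC content at the 3' end, 5 of the markers were lower and 1 higher (median -0.38). The shares of all symbols were then 19.1% and 15%. Of the lung lineage genes in that list, SFTPB was at 0 in both, SFTPC had 2 counts after ADGRF4 siRNA and 0 after control siRNA, and NKX2-1 had 0 and 6. Of 10 leukocyte markers, 5 were detected in each library, with 48 counts in all after ADGRF4 siRNA and 72 after control siRNA, and the T, B and NK cell markers CD3E, CD2, MS4A1 and NKG7 were at 0 in both. Of 10 fibroblast and endothelial markers, 6 were detected after ADGRF4 siRNA and 1 after control siRNA, with 60 and 50 counts in all, of which COL1A1 gave 45 and 50. The part of such markers in any result was not tested.

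Of the 9 class I genes, 4 were lower after ADGRF4 siRNA and 1 was higher. PSMB8, ERAP1, TAP2 and HLA-B were at least 1.5-fold lower, TAPBP was at least 1.5-fold higher, and HLA-C, B2M, PSMB9 and TAP1 lay between these limits. A gene was called by size alone, from log2 of (CPM + 1) in the ADGRF4 siRNA library over (CPM + 1) in the control library, where CPM are counts scaled to the size of the library, adjusted by TMM (trimmed mean of M values). All of the ratios but that of TAPBP were below 0 (8 of 9), but those of TAP1 and PSMB9 had counting intervals that hold equal levels. The median of all symbols compared was itself just below 0, at -0.016, so a ratio below 0 is common among all symbols. Compared were the 11771 symbols that averaged 30 counts or more over both libraries, all 9 members among them. Of these, 22.3% were lower and 21.1% higher by the same limit. Scaled by total counts, these shares were 27.7% and 16.1%, the median symbol moved from -0.016 to -0.16, and HLA-C passed the limit too. The median log2 ratio of the 9 genes was -0.55. At 2-fold, ERAP1 and PSMB8 were lower and TAPBP was higher on this scale, against 10.4% and 7.84% of all symbols. In bulk RNA, fewer cells that express a gene and less of its RNA per cell cannot be told apart.

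**Figure D1:**
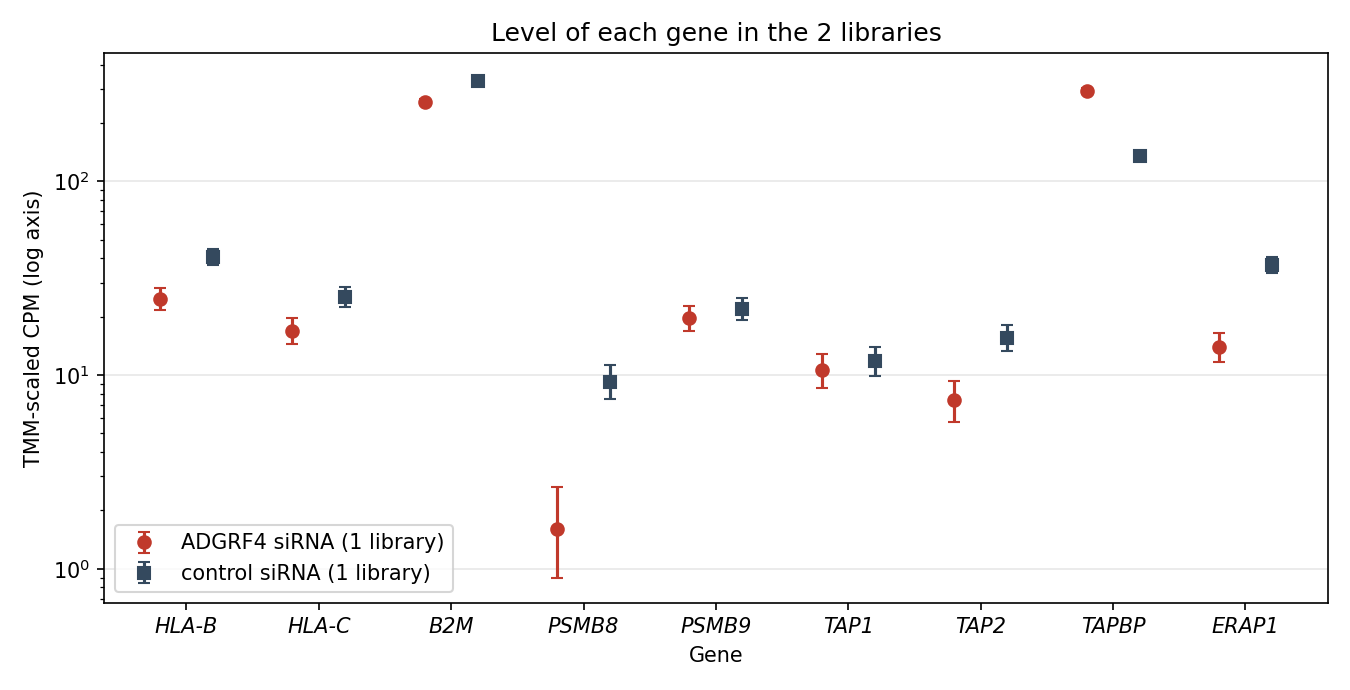
Level of the 9 genes in TMM-scaled CPM (log axis) in the ADGRF4 siRNA library (red circles) and the control siRNA library (dark squares), 1 library each, with exact 95% Poisson intervals of the counts. PSMB8 stands at 1.61 and 9.23 CPM, ERAP1 at 13.9 and 37.0 CPM, and TAPBP is higher after ADGRF4 siRNA, at 294 against 135 CPM.

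Of the polymorphic heavy chains, HLA-B was lower and HLA-C lay just short of the limit. HLA-B had 230 counts (24.6 CPM) in the ADGRF4 siRNA library, against 446 counts (40.7 CPM) in the control library, and was 1.65-fold lower (1.41 to 1.95). HLA-C had 158 counts (16.9 CPM) after ADGRF4 siRNA, against 277 counts (25.3 CPM) after control siRNA, a level 1.49-fold lower (1.22 to 1.83). Both counting intervals lay below equal levels. HLA-B gave 59.3% (54.2 to 64.2) of the counts of the pair after ADGRF4 siRNA and 61.7% (58.0 to 65.2) after control siRNA. The fold of HLA-B divided by that of HLA-C was 0.904 (0.697 to 1.17), a number that no library scaling can change, so the pair differed by less than the counting error. HLA-E, a heavy chain that shows leader peptides to NK cells, is no member and was picked after its values were seen. It had 904 counts after ADGRF4 siRNA and 816 after control siRNA and was 1.30-fold higher (1.18 to 1.43). Its fold was 2.15 times that of HLA-B (1.78 to 2.60). Centred on the median of symbols with like GC content at the 3' end, the log2 ratio of HLA-E was 0.036 and that of HLA-B -0.67.

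HLA-B and HLA-C are near copies, and reads can be split between them. In GENCODE 29, 92.3% of the 299 aligned bases in the last 300 bases of their longest coding transcripts were identical, but none of the 251 stretches of 50 bases there occurred in a transcript of another gene. Each has further rows in the count tables under the same symbol, 6 rows for HLA-B and 7 for HLA-C, of which 1 each held any counts. The same was true of TAP1, TAP2, PSMB8 and PSMB9, with 8 rows each, and of TAPBP with 5.

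B2M, the light chain that class I heavy chains need to reach the surface, lay between the limits. It had 2399 counts (257 CPM) in the ADGRF4 siRNA library, against 3626 counts (331 CPM) in the control library, a level 1.29-fold lower (1.22 to 1.36). The fold of HLA-B divided by that of B2M was 0.779 (0.656 to 0.924), and that of HLA-C divided by that of B2M was 0.862 (0.700 to 1.06). B2M had the most counts of the members with a ratio below 1, and 20.6% of the 582 symbols with a mean count within 1.5 times of its own had a ratio as low or lower.

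The start regions of HLA-B and HLA-C are shown because the pair had like ratios and is known to share its control elements: an NF-kB site, an interferon-stimulated response element and an X2 and Y box module to which the regulator NLRC5 is recruited. Sequences are the 250 bases before the transcript start in RefSeq (GRCh38.p14), written 5' to 3' on the gene's strand, which is the minus strand for both, at chr6:31357180-31357429 for HLA-B and chr6:31272093-31272342 for HLA-C. Capitals mark, on either strand, GGGGATTC (core of the class I NF-kB site), TTTCNNTT (core of the interferon element), TGACG (X2 type) and CCAAT (Y box), and in the sequences further below also GGGACTTTC (another NF-kB form) and TTTCNNTTT (a longer interferon element, which holds TTTCNNTT).
HLA-B: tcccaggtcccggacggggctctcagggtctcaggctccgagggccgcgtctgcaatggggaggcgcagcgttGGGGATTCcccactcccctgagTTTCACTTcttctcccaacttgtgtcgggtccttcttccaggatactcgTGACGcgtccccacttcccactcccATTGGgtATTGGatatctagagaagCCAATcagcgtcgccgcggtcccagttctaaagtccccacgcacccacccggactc
HLA-C: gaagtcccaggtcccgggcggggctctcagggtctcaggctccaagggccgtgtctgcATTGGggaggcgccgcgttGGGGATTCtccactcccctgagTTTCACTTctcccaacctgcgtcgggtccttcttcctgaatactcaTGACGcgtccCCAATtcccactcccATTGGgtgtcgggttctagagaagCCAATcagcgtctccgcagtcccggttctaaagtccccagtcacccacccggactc
Of 246 aligned bases, 91.9% were identical. GGGGATTC was found in 0.772% of all 35116 RefSeq windows of this length and, among the 9 genes, in HLA-B and HLA-C. TTTCNNTT was in 20.3% of all windows, TGACG in 21.2% and CCAAT in 32.0%, and both heavy chains held all of these. A match of letters is a description and not a shown binding site.

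The catalytic subunits of the immunoproteasome, which take the place of constitutive subunits and shift cleavage towards peptides that fit class I grooves, went apart. PSMB8, which replaces PSMB5, had 15 counts (1.61 CPM) in the ADGRF4 siRNA library, against 101 counts (9.23 CPM) in the control library. It was the member with the largest difference, lower by 3.32-fold to 10.6-fold, and lay at percentile 1.45 of the ratios of all symbols compared. Among the 2041 symbols with a mean count within 1.5 times of its own, 54 (2.65%) were as low or lower. PSMB9, which replaces PSMB6, had 184 counts (19.7 CPM) after ADGRF4 siRNA, against 241 counts (22.0 CPM) after control siRNA, a ratio of 0.896 (0.735 to 1.09) whose interval holds equal levels. The fold of PSMB8 divided by that of PSMB9 was 0.195 (0.102 to 0.351), so the pair of immunoproteasome genes differed beyond counting error.

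Set against the constitutive subunits they replace, a comparison chosen after the values were seen, both members took a smaller share of the pair's counts. PSMB8 gave 0.470% (0.263 to 0.773) of the counts of PSMB8 and PSMB5 after ADGRF4 siRNA and 3.22% (2.63 to 3.89) after control siRNA. PSMB9 gave 1.87% (1.61 to 2.16) of the counts of PSMB9 and PSMB6 after ADGRF4 siRNA and 3.62% (3.19 to 4.10) after control siRNA. In that pair PSMB6 itself was higher, with 9658 counts after ADGRF4 siRNA and 6413 after control siRNA (1.77-fold, 1.71 to 1.82), whereas PSMB5 had 3179 and 3040 counts (1.23-fold, 1.17 to 1.29). PSMB10, the immunoproteasome subunit that replaces PSMB7 and is no member, went the other way. It had 425 counts after ADGRF4 siRNA and 302 after control siRNA (1.65-fold higher, 1.42 to 1.92), and its share of the counts of PSMB10 and PSMB7 was 11.9% (10.8 to 13.0) after ADGRF4 siRNA and 9.39% (8.40 to 10.4) after control siRNA. Centred on the median of symbols with like GC content at the 3' end, the log2 ratio of PSMB10 was 0.12, within the limits.

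**Figure D2:**
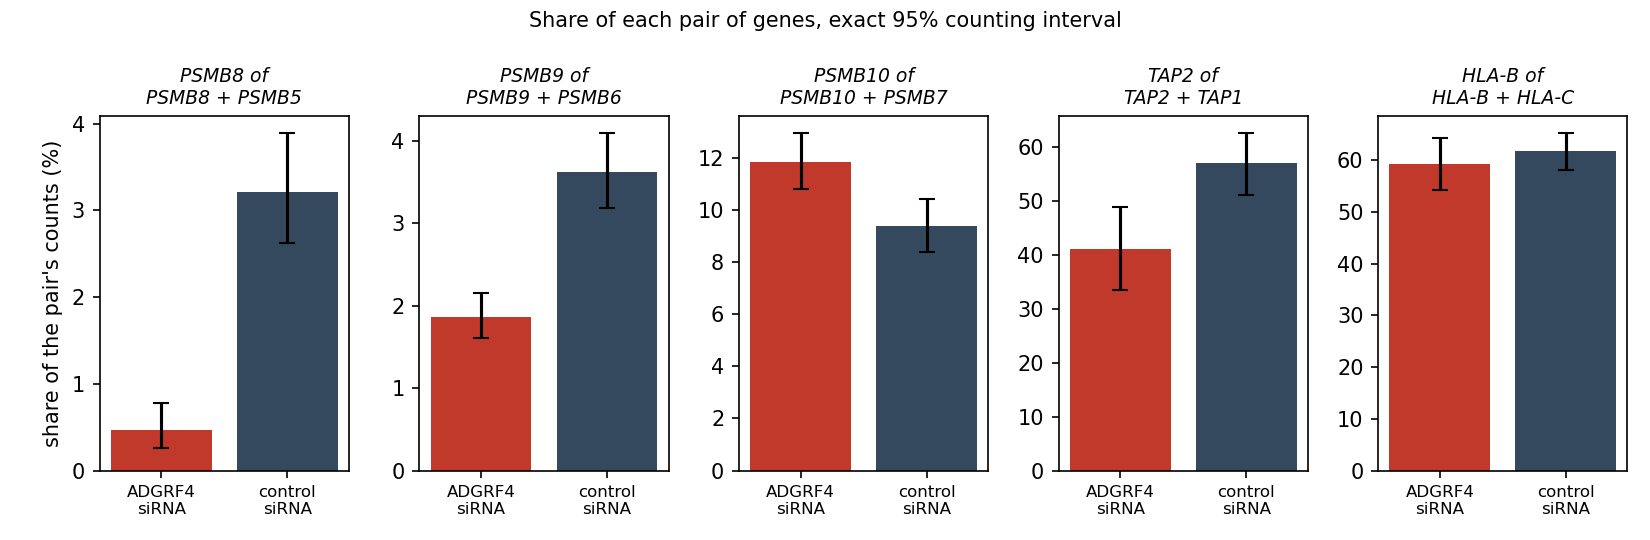
Share of the first gene in the counts of each pair of genes (%), for the ADGRF4 siRNA library (red) and the control siRNA library (dark), with exact 95% binomial intervals; the vertical scale starts at 0 and differs between panels. The shares of PSMB8, PSMB9 and TAP2 are smaller after ADGRF4 siRNA, that of PSMB10 is larger, and the intervals of HLA-B overlap.

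The subunits of the peptide transporter, which act as a heterodimer, did not move alike. TAP2 had 69 counts (7.39 CPM) in the ADGRF4 siRNA library, against 171 counts (15.6 CPM) in the control library, and was 2.11-fold lower (1.59 to 2.84). TAP1 had 99 counts (10.6 CPM) after ADGRF4 siRNA, against 129 counts (11.8 CPM) after control siRNA, a ratio of 0.900 (0.686 to 1.18) that counting error does not separate from 1. TAP2 made up 41.1% (33.6 to 48.9) of the counts of both transporter genes after ADGRF4 siRNA and 57.0% (51.2 to 62.7) after control siRNA, and its fold was 0.526 (0.352 to 0.785) times that of TAP1.

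TAP2, PSMB8, TAP1 and PSMB9 are neighbours, in this order, in the class II region of the MHC on chromosome 6, with no other coding gene between them in RefSeq. Along this stretch the ratios were 0.473 for TAP2, 0.174 (0.0940 to 0.301) for PSMB8, 0.900 for TAP1 and 0.896 for PSMB9. TAP1 and PSMB9 are transcribed away from each other, with starts 488 bases apart in RefSeq. The fold of PSMB9 divided by that of TAP1 was 0.995 (0.710 to 1.40). Centred on 3' GC, their log2 ratios lay further apart, at -0.49 for PSMB9 and -0.10 for TAP1. PSMB8-AS1, a non-coding RNA on the strand opposite to PSMB8 and TAP1, had 47 counts after ADGRF4 siRNA and 66 after control siRNA, a ratio of 0.835 (0.562 to 1.23). In GENCODE 29 its transcripts overlap exons of TAP1 and PSMB8 on the other strand, and 132 of the 251 stretches of 50 bases at the 3' end of TAP1 (52.6%) also lie in PSMB8-AS1. Exons of PSMB8 and PSMB9 overlap too. Those of PSMB9 also overlap PSMB8-AS1 on the same strand, where strand would not separate the reads. None of the 251 stretches at the 3' end of PSMB8, nor of those at the 3' end of PSMB9, lie in a transcript of another gene. Whether strand was used in the counting is not stated in the labels; without strand, reads from the part that TAP1 shares with PSMB8-AS1 cannot be told apart, and the ratios of TAP1 and PSMB8-AS1 are uncertain for that reason. The fold of PSMB8 was 0.209 (0.1005 to 0.419) times that of PSMB8-AS1.

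The start regions of TAP1, PSMB9 and PSMB8 are given to set the divergent pair, whose ratios were alike before GC centring, beside their neighbour with the largest difference. TAP1 is on the minus strand at chr6:32853705-32853954, PSMB9 on the plus strand at chr6:32853942-32854191, and PSMB8 on the minus strand at chr6:32844680-32844929, all in GRCh38.p14, with capitals as above.
TAP1: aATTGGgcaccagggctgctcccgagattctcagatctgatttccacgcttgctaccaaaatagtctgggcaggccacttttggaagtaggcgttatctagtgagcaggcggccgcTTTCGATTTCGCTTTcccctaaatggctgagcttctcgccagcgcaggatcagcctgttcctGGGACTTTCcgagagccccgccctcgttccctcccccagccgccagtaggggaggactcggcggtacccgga
PSMB9: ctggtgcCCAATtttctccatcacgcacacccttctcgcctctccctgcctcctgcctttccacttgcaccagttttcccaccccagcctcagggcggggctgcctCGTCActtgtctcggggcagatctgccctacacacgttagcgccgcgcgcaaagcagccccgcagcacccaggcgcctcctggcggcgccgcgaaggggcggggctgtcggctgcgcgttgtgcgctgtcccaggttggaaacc
PSMB8: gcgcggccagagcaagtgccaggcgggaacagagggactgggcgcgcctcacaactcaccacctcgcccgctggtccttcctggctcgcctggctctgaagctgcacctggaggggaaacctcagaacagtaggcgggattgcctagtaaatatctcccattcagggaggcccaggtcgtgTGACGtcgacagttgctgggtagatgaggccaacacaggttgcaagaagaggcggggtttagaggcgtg
TAP1 held TTTCNNTTT at 2 overlapping places, as did TAPBP and B2M, and TAP2 held it once; it was in 9.20% of all windows. GGGACTTTC was in TAP1 and B2M, against 0.325% of all windows. RefSeq lists a further start for TAP1, PSMB8 and ERAP1. Neither window of PSMB8 held GGGGATTC, GGGACTTTC or TTTCNNTT, which says only that these letters are not in those 250 bases. TTCNNNGAA, the letters of a gamma-activated site, were in the further windows of PSMB8 and TAP1 and in 6.57% of all windows; they are not marked by capitals.

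TAPBP, which encodes tapasin, was the member on the other side. It had 2744 counts (294 CPM) in the ADGRF4 siRNA library, against 1478 counts (135 CPM) in the control library, and lay 2.04-fold to 2.32-fold higher, at percentile 94.9 of all symbols compared. Its fold was 2.42 times that of TAP1 (1.83 to 3.20) and 2.81 times that of B2M (2.58 to 3.05). TAPBPL, a tapasin-related peptide editor that is no member, was also higher, with 111 counts after ADGRF4 siRNA and 78 after control siRNA (1.67-fold, 1.24 to 2.26), and the fold of TAPBP over that of TAPBPL was 1.30 (0.957 to 1.77). Centred on 3' GC, the log2 ratios of TAPBP (0.40) and TAPBPL (0.48) both lay under the limit of 1.5-fold. Those of TAP1 and B2M were then -0.10 and -0.12, so TAPBP stood less far from them than the folds above, which are not centred. The start region of TAPBP, on the minus strand at chr6:33314079-33314328 in GRCh38.p14, is printed because it carries the longer interferon element letters, as TAP1, TAP2 and B2M do, close to its start.
TAPBP: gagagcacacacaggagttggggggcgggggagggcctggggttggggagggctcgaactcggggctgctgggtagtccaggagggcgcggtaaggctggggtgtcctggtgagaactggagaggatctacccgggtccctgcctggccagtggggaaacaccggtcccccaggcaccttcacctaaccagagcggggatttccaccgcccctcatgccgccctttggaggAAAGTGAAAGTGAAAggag

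ERAP1, the aminopeptidase that trims peptides to class I length, had 130 counts (13.9 CPM) in the ADGRF4 siRNA library, against 405 counts (37.0 CPM) in the control library. That is a ratio of 0.377 (0.307 to 0.460), at percentile 5.41 of all symbols compared. Its last 300 bases had 21.7% GC, the lowest of the members, and exons of CAST overlap it on the other strand. ERAP2, a related trimming enzyme picked after its values were seen, was under the limit on counts, with 17 counts after ADGRF4 siRNA and 5 after control siRNA, a ratio of 3.99 (1.41 to 13.8) that rests on few reads.

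**Figure D3:**
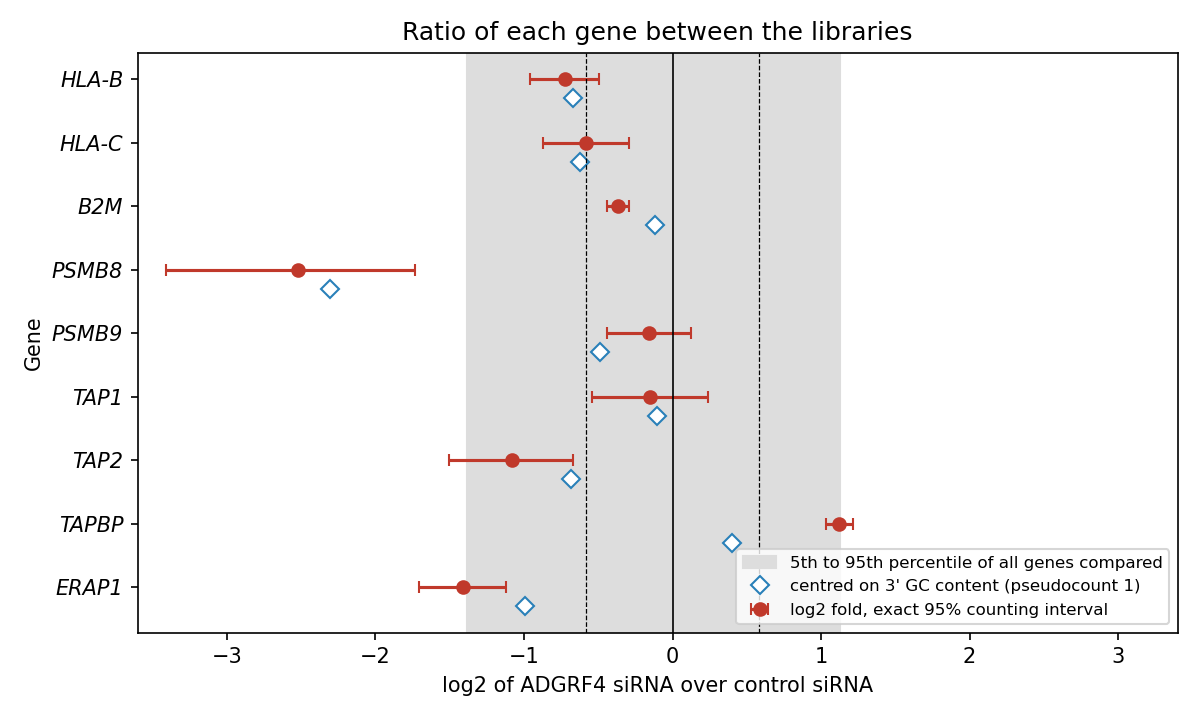
Log2 of the ADGRF4 siRNA level over the control siRNA level for each of the 9 genes (red points, without pseudocount, with exact 95% counting intervals); open diamonds give the log2 ratio of (CPM + 1) after centring on 3' GC content. The grey band is the 5th to 95th percentile of the log2 ratios of (CPM + 1) of all symbols compared, -1.38 to 1.13, a scale that differs from that of the red points. Dashed lines mark 1.5-fold. PSMB8 lies below the band and ERAP1 and TAPBP lie at its edges. With the pseudocount ERAP1 is at -1.35, inside the band. The centred value of TAPBP is 0.40.

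The ratios of all symbols followed the GC content of the transcript's 3' end, and the members span much of that range, with TAPBP at 57.7% the highest. In the bin of TAPBP, 576 symbols with 57.7% to 60.7% GC, 58.7% were at least 1.5-fold higher and 25.9% at least 2-fold higher, and TAPBP lay at percentile 82.6 of that bin. Centred on the median of its bin, its log2 ratio was 0.40, under the limit of 1.5-fold. PSMB8 and PSMB9 share a bin of 50.3% to 52.7% GC in which 36.1% of symbols were higher and 14.2% lower. PSMB8 lay at percentile 1.39 there, with a centred log2 ratio of -2.31, and PSMB9 at percentile 25.3, with -0.49. The bins of ERAP1 and TAP2, low in GC, leaned to lower ratios. In that of ERAP1 34.1% of symbols were lower and 4.33% higher, and in that of TAP2 32.6% and 6.42%. ERAP1 lay at percentile 7.80 of its bin and TAP2 at percentile 14.2. Centred, ERAP1 moved to -0.99, HLA-B was at -0.67, TAP2 at -0.68 and HLA-C at -0.62, whereas B2M (-0.12) and TAP1 (-0.10) came close to 0. After centring, 5 of the 9 genes were at least 1.5-fold lower and 0 higher, against 19.1% and 15% of the 11525 symbols with a GC value, and the median of the 9 was -0.62.

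**Figure D4:**
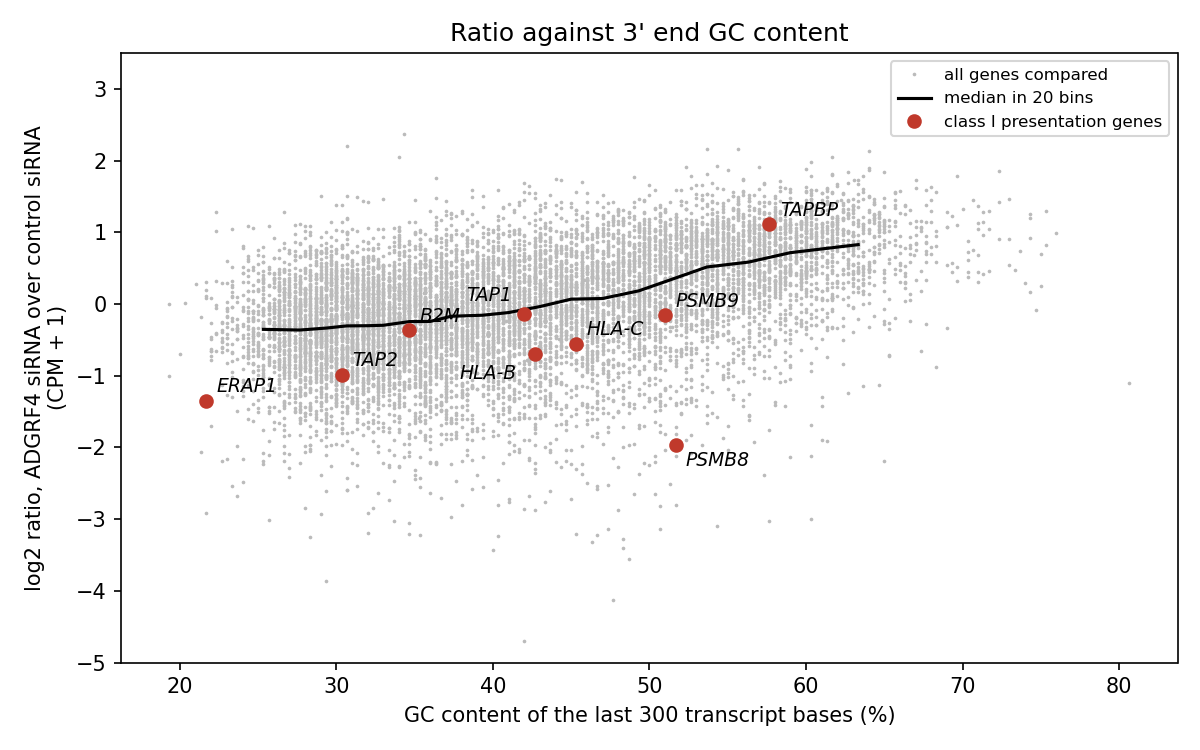
Log2 ratio (CPM + 1) of the ADGRF4 siRNA library over the control siRNA library against the GC content of the last 300 transcript bases (%), for all symbols compared (grey) and the 9 genes (red); the line joins medians of 20 bins. PSMB8 lies far below the line at 51.7% GC, and TAPBP lies near it at 57.7% GC.

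Lists of genes around the class I pathway went both ways. Each list is described by its count at 1.5-fold, beside the 21.1% higher and 22.3% lower of all symbols, and with the symbols of largest ratio. After centring on 3' GC, these shares of all symbols were 15% and 19.1%. Among class I-like chains outside the members, for which no list count is given, PROCR, an endothelial protein C receptor with a class I-like fold, was 3.15-fold lower (2.47 to 4.05). Higher were FCGRT, the heavy chain of the neonatal Fc receptor that pairs with B2M (1349 counts after ADGRF4 siRNA and 802 after control siRNA, 1.97-fold), and MR1, which presents microbial metabolites (112 and 71 counts, 1.85-fold). Centred on 3' GC, FCGRT had a log2 ratio of 0.39 and lost its call.

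Of the 10 genes of peptide loading, folding and quality control, 4 were higher and 1 lower (median 0.23). The lower gene was CALR, the calreticulin of the loading complex, with 2693 counts after ADGRF4 siRNA and 7212 after control siRNA. The higher ones were CANX, the chaperone that binds new heavy chains (33026 and 22031 counts, 1.76-fold), PRKCSH, a glucosidase subunit (985 and 505 counts, 2.29-fold), TAPBPL, and HSPA5, a chaperone of the endoplasmic reticulum that was named after its values were seen (1.51-fold). After centring on 3' GC this list gave 1 higher, CANX, and 1 lower, CALR. On the log2 scale PRKCSH (0.35), HSPA5 (0.52) and TAPBPL (0.48) then lost their calls.

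Among 10 constitutive proteasome subunits, PSMB10 and proteasome regulators, 4 were higher and 0 lower (median 0.41). PSME2, a subunit of the interferon-inducible activator that opens the proteasome, had 1992 counts after ADGRF4 siRNA and 1298 after control siRNA (1.80-fold, 1.68 to 1.93), while its partner PSME1, picked after its values were seen, had 1441 and 1435 counts (1.18-fold, 1.09 to 1.27). PSMD4, a ubiquitin receptor, was 1.53-fold higher. After centring on 3' GC, 3 of the list were higher and 0 lower. The 3 were PSME2, PSMB6 and POMP (0.82 on the log2 scale), the last picked after its values were seen. PSMD4 lost its call at 0.43. Of 10 compared peptidases that trim or destroy peptides, 5 were higher and 1 lower (median 0.58). LAP3, a leucine aminopeptidase, was 1.91-fold higher (1.44 to 2.54), THOP1, a cytosolic oligopeptidase, 1.77-fold and NRD1, nardilysin, 1.75-fold, and NPEPPS, a cytosolic aminopeptidase, was 1.69-fold lower (1.55 to 1.84). Centred in this way, 3 of the peptidases were higher and 0 lower, with THOP1 at 0.10 and NPEPPS at -0.44 on the log2 scale.

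Regulators of class I transcription were mostly between the limits, with 17 of 21 there, 1 higher and 3 lower (median -0.16). IFNGR2, a chain of the interferon gamma receptor, had 114 counts after ADGRF4 siRNA and 420 after control siRNA and was 3.14-fold lower (2.55 to 3.90). NFKB1 was 2.42-fold lower (1.95 to 3.01) and NFYC, a subunit of the factor that binds CCAAT, 1.80-fold lower (1.59 to 2.03), whereas RELA was 1.53-fold higher. With 3' GC centred, 1 of the regulators was higher and 3 were lower, and RELA lost its call at 0.27 on the log2 scale. NLRC5, the regulator recruited to class I promoters, was under the limit on counts, with 26 counts in each library (ratio 1.17, 0.654 to 2.10). IRF1, an interferon-induced transcription factor, had 493 counts after ADGRF4 siRNA and 491 after control siRNA (ratio 1.18). NLRC5 and IRF1 were picked after their values were seen.

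Interferon-stimulated genes, many of which share the interferon element with the class I genes, gave 5 higher and 1 lower among 12 compared (median 0.12), a list that also holds PSMB8-AS1. IFI35 was 2.36-fold higher (1.82 to 3.08), IFITM2 2.02-fold and LGALS3BP 1.62-fold, and IFIT3 had 15 counts after ADGRF4 siRNA and 47 after control siRNA (2.67-fold lower, 1.47 to 5.14). After centring on 3' GC, 1 was higher and 1 lower. IFI35 (0.43), IFITM2 (0.49) and LGALS3BP (0.10) lost their calls on the log2 scale. The higher one was OAS3 (0.78), picked after its values were seen, and the lower one was IFIT3 (-0.78). In the list of class I export and endocytic turnover, 7 of 17 were lower and 5 higher (median -0.32). The small subunits of the translocon, SEC61G and SEC61B, had 107 and 182 counts after ADGRF4 siRNA, against 973 and 1038 after control siRNA, and were 7.75-fold and 4.86-fold lower. SEC24C, a coat protein of export vesicles, was 2.76-fold lower, and STUB1, a ubiquitin ligase, 2.71-fold higher (2.51 to 2.94). After centring on 3' GC, 6 of this list were lower and 3 higher.

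**Figure D5:**
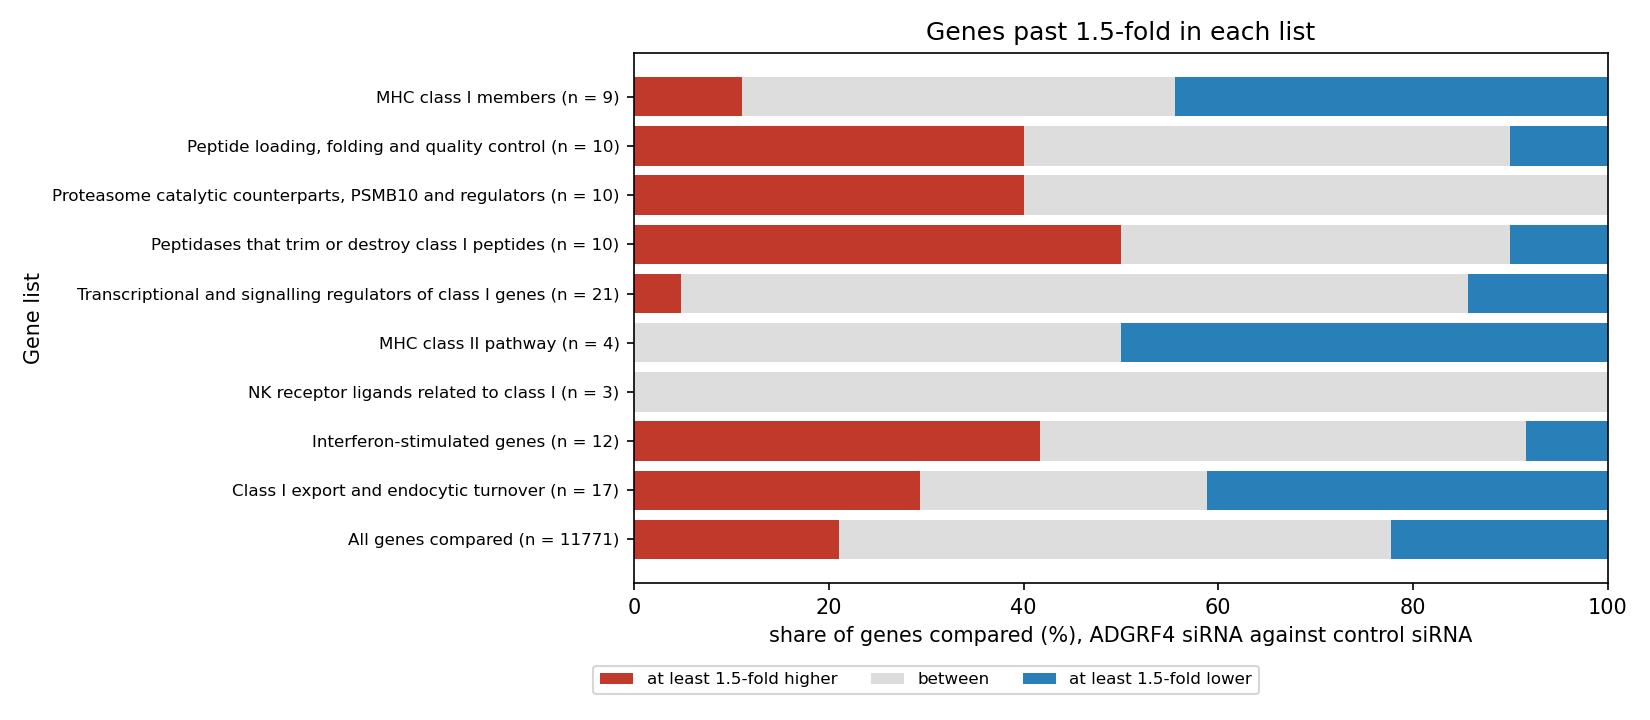
Share of compared genes (%) at least 1.5-fold higher (red), between (grey) and at least 1.5-fold lower (blue) after ADGRF4 siRNA, for the 9 class I genes, the related lists with at least 3 compared genes (without the class I-like chains) and, at the bottom, all symbols compared. The class I genes have 4 of 9 lower and 1 higher, and the peptidase and proteasome lists have 5 and 4 of 10 higher.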

How the data were processed

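Whole-number counts per gene symbol were deposited by the authors for 1 library per treatment, with no normalization in the files. Bowtie2, edgeR and genome build hg19 are named, per the submitters' processing notes, without roles or versions. The annotation, strand setting and treatment of multiply mapped reads were not given in the sources used here. All rows (25737) were read. No row lacked a symbol, 286 symbols were on more than 1 row, and rows of 1 symbol were summed.

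Libraries were scaled by TMM (edgeR 4.0.16, R 4.3.3). Ratios used a pseudocount of 1 CPM, which understates changes of low genes; folds of single genes carry none. Intervals of a fold or share are exact Clopper-Pearson, those of a count exact Poisson, and those of 1 fold over another exact conditional intervals of the odds ratio, all at 95%. Reads have no molecular identifiers, so these cover counting error only. Symbols that averaged 30 counts or more were compared. GC content came from the last 300 bases of the longest coding transcript in GENCODE 29 for 97.9% of them, in 20 bins. Start windows came from RefSeq, which is on GRCh38.p14, not the build of the counts. Calculations used Python 3.11.15, scipy 1.17.1 and Biopython 1.88, and were tested on simulated data. Members and lists were chosen with earlier results of these data known. Named genes are all members, ADGRF4 and up to 4 of each pathway list with the largest absolute ratio; marker genes, HLA-H, HLA-G, HLA-DMA, PSMB8-AS1 and those said to be picked later were named outside this rule, and some genes of these lists are not reported here. Alternatives were other scalings (DESeq2 1.42.0 among them), pseudocounts, count limits, folds, single rows, GC centring and thinning of the control library.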

Additional observations from a re-analysis of the deposited data

How the results depend on the processing

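With GC centring, 0 members were at least 1.5-fold higher, since TAPBP lost its call, and at 2-fold instead of 1.5-fold 2 were lower. Under every other alternative listed for the 9 genes, 1 was higher and 3 to 5 were lower; the 3 came with a limit of 100 counts, which leaves out PSMB8. The median log2 ratio lay between -0.69 and -0.46. None of the member ratios changed sign in any of the alternatives run. The log2 ratio of PSMB8 was -1.97 as reported, -2.45 with a pseudocount of 0.1 and -1.11 with a pseudocount of 5, and its call held under each of these. No paired analysis was possible because each treatment has 1 library. For the same reason no library could be left out.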

Other observations

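Of the 14 genes of the MHC class II pathway, 9 had at most 3 counts in each of these A549 libraries, among them HLA-DRA, the invariant chain CD74 and the class II regulator CIITA. By the limit of 1.5-fold, 2 of its 4 compared genes were lower after ADGRF4 siRNA and 0 were higher. Of all symbols compared, 22.3% were lower and 21.1% higher, and 4 genes are few to set against these shares. LGMN, a lysosomal protease, had 43 counts after ADGRF4 siRNA and 240 after control siRNA (4.76-fold lower, 3.43 to 6.75), and HLA-DMB, a chain of the class II peptide editor, had 36 and 75 counts (1.78-fold lower, 1.18 to 2.72). HLA-DMA, the other chain of that editor, was under the limit on counts, with 25 and 32 (ratio 0.916, 0.521 to 1.60). CTSS, a lysosomal protease that degrades the invariant chain, had 151 and 178 counts (ratio 0.995), and IFI30, a thiol reductase, had 192 and 312 (ratio 0.722). After centring on 3' GC, 3 of the 4 were lower, IFI30 among them at -0.79 on the log2 scale, against 19.1% of all symbols with a GC value.

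Stress ligands of the class I family lay between the limits in all 3 genes compared. Most symbols compared lay there too, with 22.3% lower and 21.1% higher, and 3 genes are few to set against these shares. MICA had 136 counts after ADGRF4 siRNA and 176 after control siRNA (ratio 0.906, 0.719 to 1.14), MICB had 252 and 259 (ratio 1.14, 0.956 to 1.36), and RAET1E had 42 and 37 (ratio 1.33, 0.835 to 2.13). The class I pseudogene HLA-H, named outside the lists, was read at 38 counts after ADGRF4 siRNA and 34 after control siRNA, a ratio of 1.31 (0.803 to 2.15). HLA-G, a heavy chain of the placenta, was at 0 in both libraries, with an exact upper limit of 3.69 counts in each.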
